A study of Mus musculus with 20 samples.

Results

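Collagens, laminins, matrix metalloproteinases (MMPs) and tissue inhibitors of metalloproteinases (TIMPs) were followed in cultured mouse sensory neurons that had been driven to fire in set patterns. Every array probe whose gene name marks a collagen chain, a laminin chain, an MMP or a TIMP was taken, whatever its level. This gave 81 of the 30222 gene names on the array, read by 115 of its 39429 probes. Dorsal root ganglion (DRG) neurons of NIH Swiss mouse embryos of day 13.5 were grown in chambers with several compartments for 3 to 4 weeks, after a fluoro-2-deoxyuridine treatment that limits dividing non-neuronal cells. Axons were stimulated for 2 or 5 hr with a burst of 18 action potentials each minute (18/1) or a burst of 90 at 5 min intervals (90/5), so that both patterns delivered equal numbers of action potentials. Unstimulated cultures of the same strain, age and chamber were the controls. Each of the 5 conditions had 4 samples on 2 two-colour arrays, with 2 samples of that condition on each array, and by the study's methods RNA came from pooled cultures. The p-values below therefore measure only the spread between such samples within conditions. That spread was estimated for each gene over all conditions in a fit together.

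The fibrillar collagens form the tensile fibres of connective tissue. Collagen IV and the laminins form the interlinked sheets of the basement membrane, which in a peripheral nerve surrounds each Schwann cell and its axons, and collagens VII, XV and XVIII are linked to that membrane. MMPs are zinc enzymes that cut these proteins and many others outside the cell, and TIMPs bind and block them. In a nerve or ganglion, most of this matrix is made by fibroblasts, Schwann cells and vessel cells, and several MMPs are also made by neurons.

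Levels are log2 values of the background-corrected and normalized spot intensity, and a difference of 1 is a change of 2-fold. Of the 81 members, 30 had a spot of at least 2 times its background, and no mark for an uneven spot, in every one of the 20 samples, and these were tested. They comprised 7 of 11 fibrillar collagens, 4 of 9 basement membrane collagens, 3 of 6 collagen VI chains, 4 of 17 other collagens, 6 of 11 laminin chains, 4 of 23 MMPs and 2 of 4 TIMPs. A further 34 members passed the brightness rule in all 4 samples of at least 1 condition, and 17 passed neither rule. Of the members not tested, 11 failed only through the mark for uneven spots, and all of those marks were on slide 2, which held every 18/1 5 hr and 90/5 2 hr sample. In unstimulated neurons, 57 of the 81 members carried the scanner's mark for a spot well above background in all 4 samples and 19 in none. Of the 15 members that were not well above background in any sample of slides 1 and 3, 8 were MMPs.

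Markers of cells other than neurons were also detected in the cultures. In unstimulated samples, 17 of 18 neuron markers were well above background in all 4 samples. So were 13 of 16 fibroblast markers, 13 of 16 markers of Schwann cells and satellite glia, 10 of 12 macrophage markers and 6 of 12 markers of endothelial cells and pericytes. A marker counted through any of its spots. Of all 43020 spots on the array, 28376 to 29807 were well above background in each unstimulated sample, so such counts alone do not set these markers apart from other genes. The summed log2 level of the fibroblast markers lay between 15.46 and 15.98 in unstimulated samples and between 15.46 and 15.91 after 18/1 for 5 hr. The markers of Schwann cells and satellite glia summed to between 16.28 and 16.46 in unstimulated samples. After 18/1 for 5 hr their sum was above that range on array 5 (16.72 and 16.51) and below it on array 6 (15.95 and 15.68). The vessel markers summed to between 11.96 and 12.31 in unstimulated samples, and to between 11.45 and 11.66 after 18/1 for 5 hr. After 90/5 for 5 hr the sum lay between 12.38 and 12.88, above every unstimulated sample. With slide 2 left out, the endothelial receptor gene Kdr was called there, at 0.83 ± 0.17 (limma adjusted p = 0.0219). The other 5 of the 6 vessel markers tested (Pecam1, Esam, Flt1, Cspg4 and Rgs5) differed by -0.25 to 0.1 and were not called, so this rise was not shared by the list. Of the defining markers, Meox1 and Tcf21 (fibroblasts), Erbb3 (glia), Cx3cr1 (macrophages) and Cldn5, Tek and Tie1 (endothelium) were not well above background in any unstimulated sample. The RNA came from whole cultures, so fewer cells of a type and less RNA per cell cannot be told apart. What part these cells have in the differences below was not tested. Nr4a1, a gene that activity switches on within minutes, was 4.54, 4.44, 4.76 and 5.51 higher on the log2 scale after 18/1 for 2 and 5 hr and 90/5 for 2 and 5 hr, so every stimulated condition carried a response.

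Several MMP genes carry a site for AP-1, the Fos and Jun factor that neuronal activity induces, close to their start, and they lie side by side on mouse chromosome 9. The last 100 bases before the annotated start are shown for 3 of them and for Col6a1, the single collagen among the members whose promoter held the site. They are from RefSeq, build GRCm38.p6, and are written 5′ to 3′ on the strand of the gene, with the AP-1 motif TGANTCA and the TATA box TATAAA in capitals. They lie at chr9:7445722-7445821 on the + strand for Mmp3 (stromelysin-1), chr9:7502242-7502341 on the + strand for Mmp10 (stromelysin-2), chr9:7272414-7272513 on the + strand for Mmp13 (collagenase-3) and chr10:76726045-76726144 on the - strand for Col6a1.
Mmp3: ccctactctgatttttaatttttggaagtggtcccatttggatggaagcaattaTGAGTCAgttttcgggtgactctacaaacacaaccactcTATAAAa
Mmp10: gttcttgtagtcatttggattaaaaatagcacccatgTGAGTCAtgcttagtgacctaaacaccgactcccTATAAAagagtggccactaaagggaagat
Mmp13: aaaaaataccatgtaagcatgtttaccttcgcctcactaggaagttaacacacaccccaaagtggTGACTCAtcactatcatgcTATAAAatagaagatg
Col6a1: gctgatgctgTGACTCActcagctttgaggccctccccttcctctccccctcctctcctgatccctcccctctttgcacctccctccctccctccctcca
Promoters were found for 62 of the 81 members, 69 in all. On either strand within 250 bases before the start, TGANTCA was in 9 of these 69 and in 6.75% of 32851 mouse promoters of the same length. Its 9 holders were Col6a1, Mmp1a, Mmp1b, Mmp3, Mmp7, Mmp10, Mmp12, Mmp13 and Mmp20. The TATA box was in 13 of the 69 and in 12.4% of all promoters, CCAAT in 20 and 33.8%, and the GC box GGGCGG in 33 and 32.7%. A match is a run of letters and not a site shown to be used.

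Of these 9 genes, Col6a1 alone was among the 30 tested members, and its levels in each of the 4 stimulated conditions overlapped those of unstimulated neurons. Mmp3 was well above background in all 4 samples of every condition except 90/5 2 hr, where it was in 3. With the brightness rule required in 1 condition only, its difference from unstimulated neurons at 18/1 5 hr was 0.05 ± 0.79 (SE, limma adjusted p = 0.965). The corresponding values were 0.18 ± 0.47 (adjusted p = 0.784) for Mmp10 and -0.19 ± 0.3 (adjusted p = 0.647) for Mmp13. No direction can be given for any of the 3. Mmp12, macrophage elastase, was well above background in all 20 samples and failed the main filter through 1 uneven spot on slide 2. It lay between 8.18 and 8.69 in unstimulated samples and between 7.12 and 7.57 after 18/1 for 5 hr, so the groups do not overlap. Its difference under the looser rule was -1.02 ± 0.44 and missed the threshold (limma adjusted p = 0.0764). The summed macrophage markers were 14.45 to 14.98 in unstimulated samples and 13.55 to 14.93 after 18/1 for 5 hr, and their part in the Mmp12 levels was not tested. Mmp1a, Mmp1b and Mmp20 were well above background in no unstimulated sample and Mmp7 in 1.

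**Figure D1:**
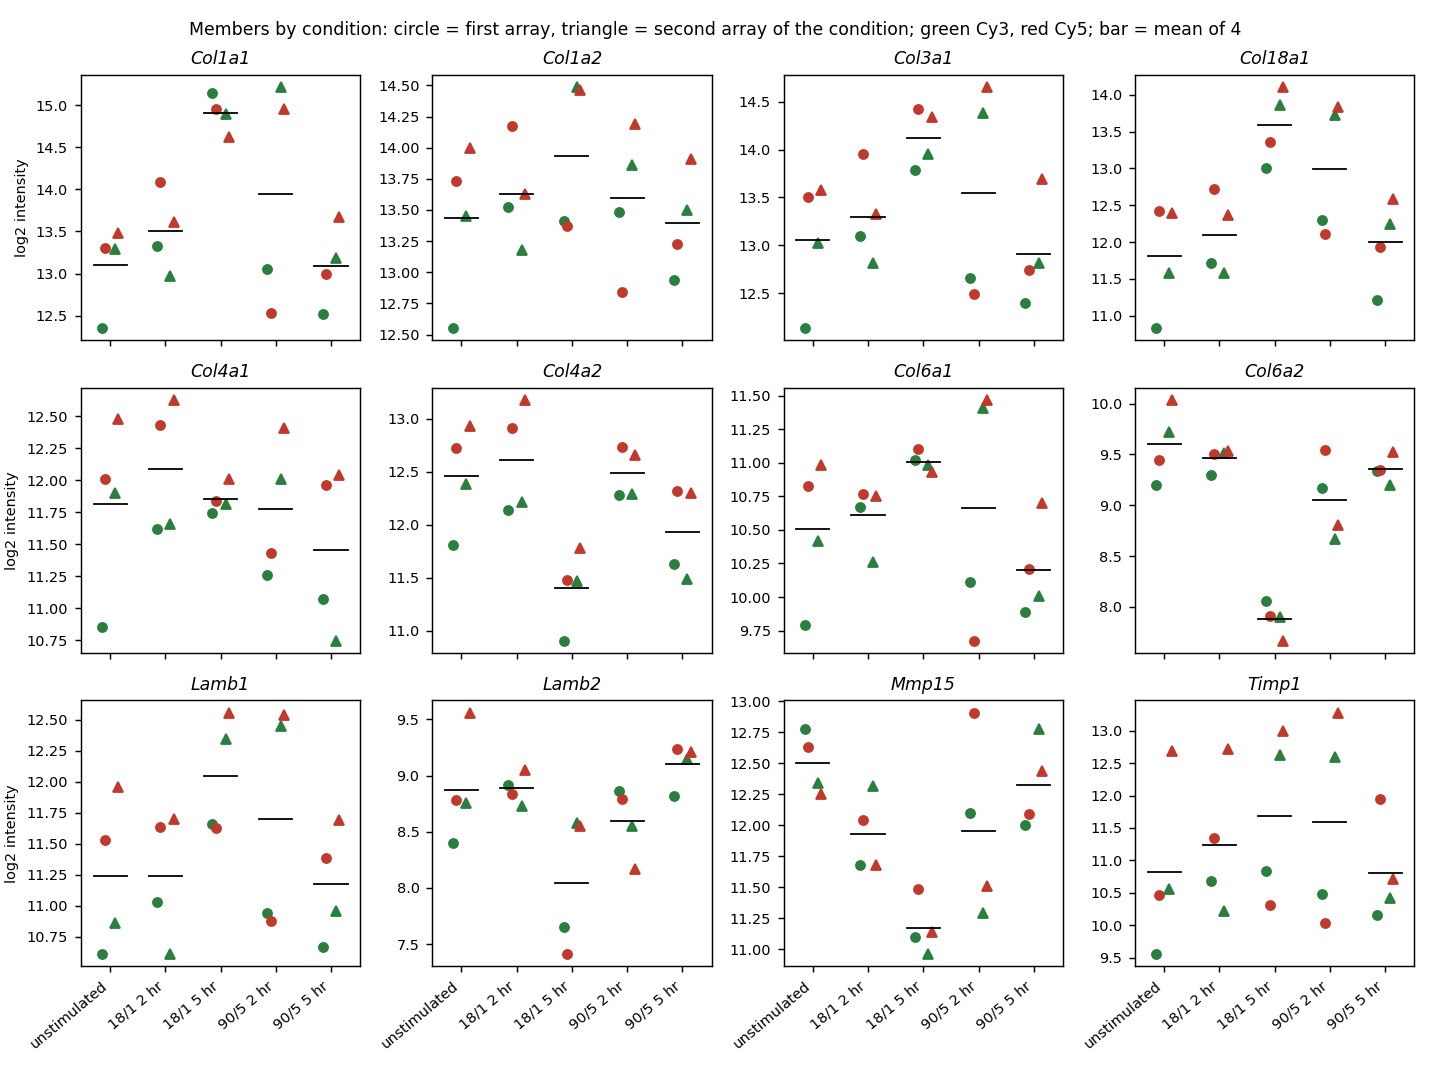
Log2 intensity of 12 members in each of the 20 samples, by condition. Circles and triangles are the 2 arrays of a condition, green is Cy3, red is Cy5, and the bar is the mean of 4. Col1a1 and Col18a1 stand higher and Col4a2, Col6a2 and Mmp15 lower in 18/1 5 hr than in unstimulated neurons, and the 2 arrays of 90/5 2 hr lie far apart for Col1a1, Lamb1 and Timp1.

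After 18/1 for 2 hr no matrix gene passed the test. None of the 30 tested members was called by limma at an adjusted p under 0.05, where 0.0193% of the 10355 genes tested were called, and none had an unadjusted p under 0.05, where 92 of all genes did. Their median difference was 0.14, against 0 for all genes, and 22 of the 30 differences were above 0. Differences ran from -0.57 for Mmp15, a membrane-bound MMP, to 0.69 for Col24a1, a fibrillar collagen. The 95% interval of Mmp15 was -1.31 to 0.18, and that of Col24a1 was -0.33 to 1.71. The most abundant fibrillar collagen gene of connective tissue, Col1a1, differed by 0.39 ± 0.52 (SE), with an interval of -0.68 to 1.46. This was the only comparison with unstimulated neurons in which both groups lay on the same slide. Within the 4 pairs of same-numbered samples, Col5a3, Col16a1 and Col24a1 were higher in all 4 and Mmp11 and Mmp15 lower in all 4. The share of all genes that went 1 way in all 4 pairs is not given, so this is not read as a result about the members. The differences were 0.47 ± 0.32 for Col5a3 and 0.42 ± 0.27 for Col16a1, and with the replicate number as a block still no member was called. The Col16a1 groups do not overlap. Intervals this wide allow changes of about 2-fold in many members. The spread behind them was estimated over all 5 conditions, slide 2 included. With slide 2 left out, the intervals were -0.95 to -0.08 for Mmp15, 0.04 to 1.39 for Col24a1 and -0.12 to 0.82 for Col1a1. None of these was called there.

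After 18/1 for 5 hr, 8 of the 30 members were called, 2 higher and 6 lower. Over all genes tested 44.4% were called, 15% higher and 29.5% lower, so the members' share was not above the background. The median difference of the members was 0.03, against -0.23 for all genes. Collagens were in both directions: 1 of 7 fibrillar collagens and 1 of 4 basement membrane collagens rose, while 1 of 7, 1 of 4 and 1 of 3 collagen VI chains fell. Of the laminin chains 1 of 6 fell, of the MMPs 2 of 4 fell, and neither tested TIMP was called. All 18/1 5 hr samples were on slide 2 and all unstimulated samples on slide 1, so slide and condition cannot be told apart.

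Col1a1 encodes the alpha 1 chain of collagen I, and its probe lies at chr11:94813115-94813174 (build mm9, + strand). Its level was 12.35, 13.31, 13.29 and 13.48 in the 4 unstimulated samples and 15.14, 14.95, 14.9 and 14.62 after 18/1 for 5 hr. The groups do not overlap, and the lowest unstimulated sample was the Cy3 sample of array 1. The spot was saturated in 3 of the 4 stimulated samples, so these levels are lower bounds. At the values read, the difference was 1.79 ± 0.52 (SE), or 3.47-fold (adjusted p = 0.00801). Without array 1 the difference was 1.52 and the call was lost (adjusted p = 0.0879).

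Its partner chain Col1a2 did not pass the test. Col1a2 read 12.55, 13.73, 13.45 and 14 in unstimulated samples and 13.41, 13.37, 14.49 and 14.46 after 18/1 for 5 hr, and the groups overlap. The difference was 0.5 ± 0.42 (adjusted p = 0.35). Within samples, Col1a1 minus Col1a2 ran from -0.52 to -0.15 in unstimulated neurons and from 0.16 to 1.73 after 18/1 for 5 hr. The Col1a1 probe holds 35% G and C and the Col1a2 probe 45%, and after 18/1 for 5 hr 3 Col1a1 spots and 1 Col1a2 spot were saturated. With the probe G and C trend removed both chains were called higher, Col1a1 at 1.47 and Col1a2 at 1.04 (adjusted p = 0.0224 and 0.0457). Col3a1, the chain of collagen III, was 12.13, 13.5, 13.02 and 13.58 in unstimulated samples against 13.79, 14.43, 13.95 and 14.34. All 4 stimulated samples were above all unstimulated ones, and the spot was saturated in 1 of them. At the values read, the difference of 1.07 ± 0.45 missed the threshold (adjusted p = 0.0558).

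Col18a1 encodes the basement membrane collagen whose end fragment is endostatin. Its levels were 10.83, 12.42, 11.58 and 12.4 in unstimulated samples and 13.01, 13.36, 13.86 and 14.11 after 18/1 for 5 hr. The groups do not overlap, and array 6 read higher than array 5. The difference was 1.78 ± 0.46, or 3.43-fold (adjusted p = 0.00398). A further Col18a1 probe gave 0.98 (adjusted p = 0.0794).

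Col4a1 and Col4a2, the most widespread collagen IV chains, are divergent genes. Their RefSeq starts on chromosome 8 (GRCm38.p6) are 11312826 on the - strand and 11312805 on the + strand. The first 22 bases of the 2 transcripts thus overlap on opposite strands. Col4a2 was 11.81, 12.72, 12.38 and 12.93 in unstimulated samples and 10.9, 11.48, 11.47 and 11.78 after 18/1 for 5 hr. All stimulated samples were lower, with a mean difference of -1.05 ± 0.24 and a 95% interval of -1.55 to -0.55 (adjusted p = 0.0015). Col4a1 differed by 0.04 ± 0.36 (adjusted p = 0.939), with an interval of -0.7 to 0.78. The probes of both chains hold 45% G and C, but once each sample's trend on probe G and C content was removed, Col4a2 stood at -0.51 ± 0.21 and was not called (adjusted p = 0.0622). Col4a2 minus Col4a1 was above 0 in all samples of the other conditions, from 0.45 to 0.97 in unstimulated neurons, and was below 0 in all 4 samples of 18/1 5 hr, from -0.83 to -0.22. The chains thus changed unequally there, at 2 probes and on slide 2 alone. Without array 2 the Col4a2 call was lost (-0.86, adjusted p = 0.0548).

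Col6a2, 1 of the 3 classical chains of collagen VI, had the lowest difference of the 30 as normalized. With the probe G and C trend removed it was -0.76 and no longer the lowest, Mmp11 standing at -0.99. It read 9.2, 9.45, 9.72 and 10.04 in unstimulated samples and 8.06, 7.91, 7.9 and 7.66 after 18/1 for 5 hr. The groups lie more than 1 log2 unit apart. The difference was -1.72 ± 0.25, or 3.28-fold lower (adjusted p = 3.26e-05). Col6a1 differed by 0.5 ± 0.39 (adjusted p = 0.313) and Col6a3 by 0.29 ± 0.52 (adjusted p = 0.672). Col6a2 minus Col6a1 lay between -1.38 and -0.6 in unstimulated neurons and between -3.27 and -2.96 after 18/1 for 5 hr. The Col6a2 probe holds 55% G and C and the Col6a1 probe 41.7%.

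Of the proteases, Mmp15, a membrane-type MMP, was 12.78, 12.63, 12.34 and 12.25 in unstimulated samples and 11.1, 11.49, 10.96 and 11.14 after 18/1 for 5 hr. It was lower in all 4 samples, and the difference was -1.33 ± 0.36 (adjusted p = 0.00533). Mmp23, a membrane-anchored MMP without a haemopexin domain, read 7.73, 7.92, 8 and 7.99 against 6.94, 6.8, 7.05 and 6.88. It differed by -0.99 ± 0.27 (adjusted p = 0.00527), and 2 of its 4 stimulated samples were not well above background. Mmp24, a membrane-type MMP of the nervous system, gave -0.51 ± 0.38 (adjusted p = 0.294) and Mmp11, stromelysin-3, -0.67 ± 0.32 (adjusted p = 0.0942). Without array 1, Mmp15 was no longer called (-1.12, adjusted p = 0.0873), and without array 2, Mmp23 was not (-0.91, adjusted p = 0.072). Neither was called with the probe G and C trend removed, where Mmp15 stood at -0.79 ± 0.35 (adjusted p = 0.0862) and Mmp23 at -0.03 ± 0.23 (adjusted p = 0.926).

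Col11a2, a minor fibrillar chain, was 7.75, 7.99, 8.01 and 7.71 in unstimulated samples and 6.61, 6.85, 6.74 and 6.6 after 18/1 for 5 hr. The groups do not overlap, and only 1 of the 4 stimulated samples was well above background. The difference was -1.16 ± 0.35 (adjusted p = 0.00983), and it lost the call without array 1 (adjusted p = 0.0677) or array 2 (adjusted p = 0.0649), at the same difference of -1.16. With the probe G and C trend removed it was -0.78 ± 0.34 and not called (adjusted p = 0.0773). Col5a1, which seeds collagen fibrils, gave -0.66 ± 0.41 (adjusted p = 0.207), with overlapping groups. Lamb2, the laminin beta 2 chain, read 8.4, 8.78, 8.76 and 9.56 against 7.65, 7.41, 8.58 and 8.55. Its groups overlap, with array 5 lower than array 6. The difference was -0.83 ± 0.34 (adjusted p = 0.0492), and without array 5 it was -0.31 (adjusted p = 0.453). The Lamb2 call was also lost without array 1, 2, 3, 4, 9 or 10, with adjusted p-values from 0.0597 (array 9) to 0.324 (array 2). Its difference stayed at -0.83 without array 3, 4, 9 or 10 and was -1.11 without array 1 and -0.54 without array 2. The remaining laminin chains were not called: Lama1 gave 0.86 ± 0.56, Lamb1 0.81 ± 0.42, Lama5 0.61 ± 0.29, Lamc1 0.08 ± 0.31 and Lama2 -1.06 ± 0.55. A further Lama2 probe gave -0.3 (adjusted p = 0.64). Lamb2 minus Lamb1 lay between -2.75 and -2.1 in unstimulated neurons and between -4.23 and -3.77 after 18/1 for 5 hr. The Lamb2 probe holds 53.3% G and C and the Lamb1 probe 35%, and with the probe G and C trend removed Lamb2 stood at 0.07 and Lamb1 at 0.48, neither called.

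The inhibitor Timp1 varied widely between samples of a condition. It was 9.55, 10.46, 10.56 and 12.69 in unstimulated samples and 10.83, 10.31, 12.62 and 13 after 18/1 for 5 hr. The groups overlap widely, and the difference of 0.87 ± 0.86 was not called (adjusted p = 0.429). Its standard error was the largest of the 30. Timp2 was saturated in all 4 samples of 18/1 5 hr, so its mean of 15.95 there is that of saturated spots, and no fold is given against the unstimulated mean of 15.66 (adjusted p = 0.569). A further Timp2 probe gave -2.49 (adjusted p = 3.32e-05), so the 2 Timp2 probes disagree in sign and no direction is given for this gene.

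**Figure D2:**
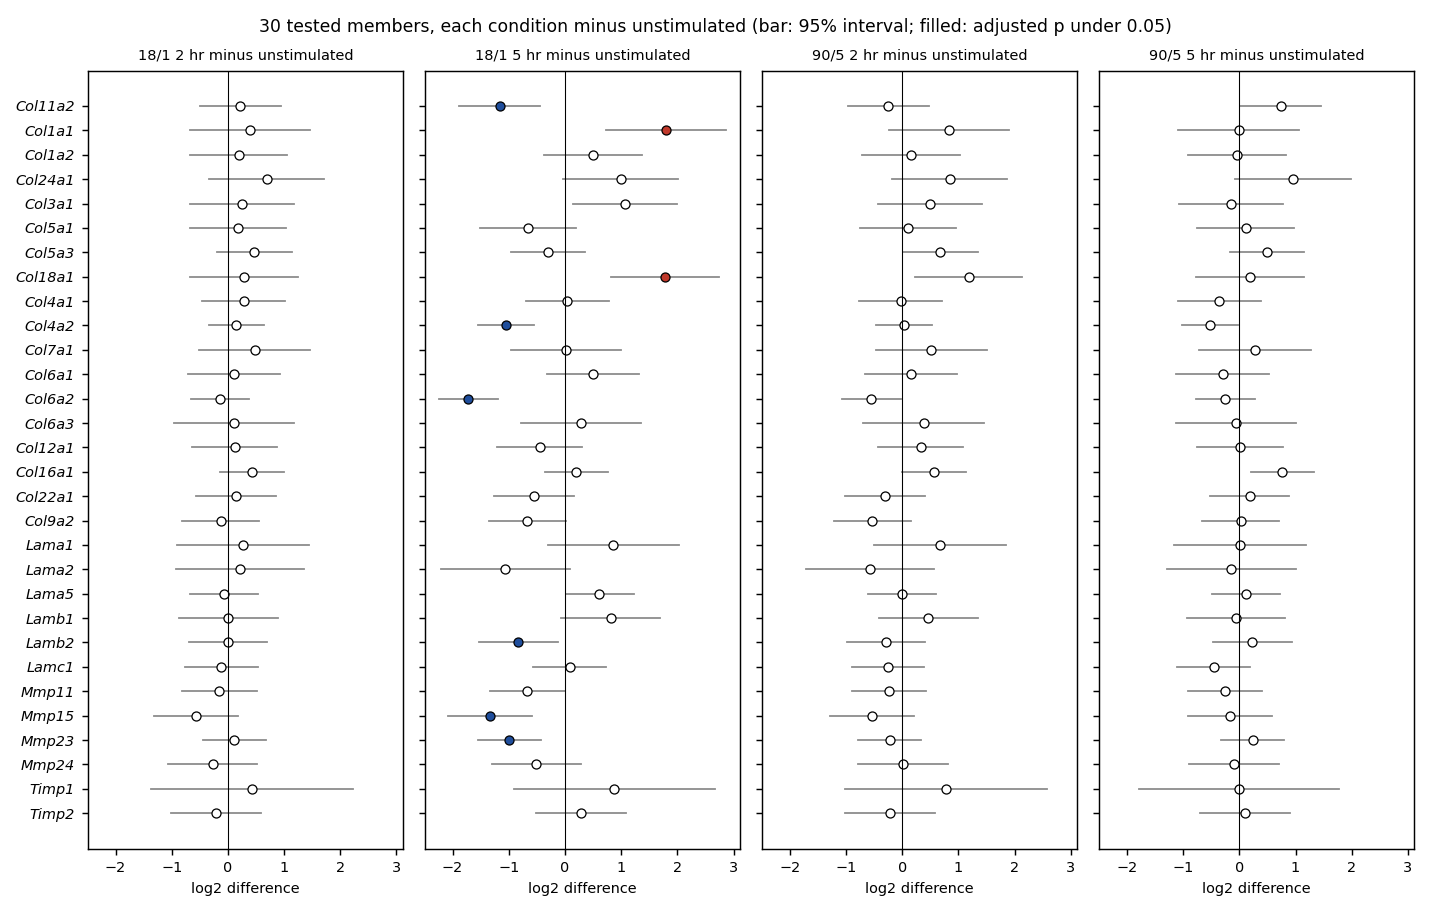
Difference in log2 intensity of the 30 tested members between each stimulated condition and unstimulated neurons, grouped by class. Bars are 95% intervals, and filled points were called (red higher, blue lower): 8 after 18/1 for 5 hr and none in the other 3 comparisons.

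The calls at 18/1 5 hr depended on the arrays and on the composition of the probes. Leaving out array 1 or array 2 left 4 members called, against 24.8% and 26.1% of all genes, and leaving out array 6 left 15, where 5662 of all 10355 genes were called, a larger share. Across the 30 members, the difference fell with the G and C content of the probe (Pearson's r = -0.654, a description across genes that share samples), as it did across all 10355 genes (r = -0.428). The 8 members with up to 38% G and C had a median difference of 0.83 and the 6 with over 52% one of -0.91. Once each sample's trend on probe G and C content was removed, 7 members were called and 35.9% of all genes. Of these 7, 5 were higher and 2 lower, and 3 were shared with the 8: Col18a1 at 1.45 (adjusted p = 0.0123), Col1a1 at 1.47 (adjusted p = 0.0224) and Col6a2 at -0.76 (adjusted p = 0.00988). Gained were Col16a1 at 0.74, Col1a2 at 1.04, Col24a1 at 1.18 and Mmp11 at -0.99. Mmp23 then stood at -0.03 and Lamb2 at 0.07. With each sample only centred on its median, 15 members were called, 2 higher and 13 lower, all 8 included, against 5443 of all 10355 genes. That scaling put the median of all genes at -0.81 in place of -0.23, and the share of higher among all genes called at 8.73% in place of 33.7%.

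**Figure D3:**
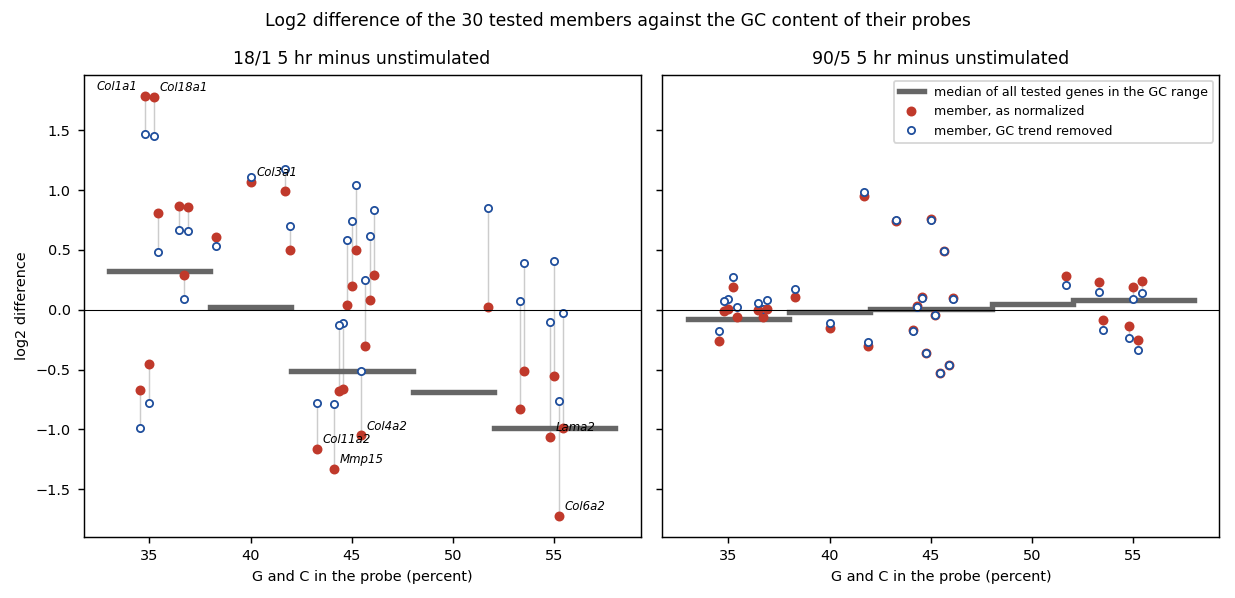
Log2 difference of the 30 tested members against the G and C content of their probe, for 18/1 5 hr and 90/5 5 hr minus unstimulated. Red points are as normalized, open blue points have each sample's trend on probe G and C removed, grey bars are medians of all tested genes in a range of G and C, and points that share a G and C content are spread sideways. The members and all genes slope down in 18/1 5 hr and not in 90/5 5 hr.

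After 90/5 for 2 hr, no tested member was called, and 6.97% of all genes were. An unadjusted p under 0.05 was reached by 4 of the 30 members and by 2372 of all genes. The median difference was 0.07, against -0.08 for all genes. The difference of Col18a1 was 1.18 ± 0.46 (adjusted p = 0.126), that of Col5a3, a collagen V chain, 0.68 ± 0.32 (adjusted p = 0.208), and that of Col6a2 -0.55 ± 0.25 (adjusted p = 0.192).

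The 2 arrays of 90/5 2 hr read most matrix genes at different levels. Col1a1 was 13.05 and 12.53 on array 7 and 15.22 and 14.96 on array 8. Lama1, a laminin alpha chain of early basement membranes, was 9.32 and 8.8 on array 7 and 11.38 and 11.08 on array 8. For 17 of the 30 members, both samples of array 8 were above both of array 7, and for 7 both were below, where 27.4% and 37.8% of all genes behaved so. Timp1 stood at 10.48 and 10.03 against 12.6 and 13.28. Of the fibroblast markers that passed the filter, 3 of 4 were higher in both samples of array 8, and of the neuron markers 5 of 16 were higher and 4 of 16 lower. Without array 7, 9 members were called: Col18a1, Col1a1, Col3a1, Col6a1, Lama1 and Lamb1 higher, and Col6a2, Col9a2 and Mmp15 lower. Of all 10355 genes, 2792 were then called, a share close to that of the members. Without array 8 none was called. The count was 1, Col5a3, when array 5 was left out, where 1625 of all genes were called. It was also 1 when only the Cy5 sample of array 7 was left out, where 10.5% of all genes were called.

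After 90/5 for 5 hr, no tested member was called, and 0.0676% of all genes were. An unadjusted p under 0.05 was reached by 3 of the 30 members and 382 of all genes. The median difference was 0, against -0.01 for all genes. Col1a1 differed by -0.01 ± 0.52, Col18a1 by 0.19 ± 0.46, Col6a2 by -0.25 ± 0.25 and Mmp15 by -0.17 ± 0.36. A further Col18a1 probe gave -0.62 (adjusted p = 1), so no direction is given for this gene here. Col4a1 differed by -0.36 ± 0.36, Lamc1, the gamma chain of most laminins, by -0.46 ± 0.31, Col5a1 by 0.11 ± 0.41 and Timp1 by 0 ± 0.86. The interval of Col1a1 was -1.09 to 1.06. Col16a1, a collagen that associates with fibrils, was 10.87, 11.29, 11.19 and 11.13 in unstimulated samples and 11.52, 11.65, 12.44 and 11.91 after 90/5 for 5 hr. All 4 stimulated samples were higher, and the difference of 0.76 ± 0.27 was not called (adjusted p = 0.938). Both array 10 samples of Col16a1 (12.44 and 11.91) were above both of array 9. The same held for 14 of the 30 members, and the reverse for 0, where 21.4% and 15.4% of all genes behaved so.

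With slide 2 left out of the normalization, the spot filter and the fit, an alternative chosen after the data were seen, 43 members could be tested, among them Mmp2, Mmp14, Mmp17, Timp3 and Lama4. None was called in either comparison. Over all 14902 genes tested, 0.0403% were called at 18/1 2 hr and 3.07% at 90/5 5 hr. An unadjusted p under 0.05 was reached by 4 members at 18/1 2 hr, where 1151 of all genes did, and by 10 at 90/5 5 hr, where 2674 did. At 90/5 5 hr the smallest adjusted p-values were those of Col16a1 (0.71 ± 0.19, adjusted p = 0.0724) and Col4a2 (-0.47 ± 0.13, adjusted p = 0.0814). Col18a1 was read there by its other probe, the only one of the 30 members whose probe changed, and stood at -0.57 ± 0.19 after 90/5 for 5 hr (adjusted p = 0.138) in place of 0.19.

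Mmp2, gelatinase A, which cuts collagen IV, read 9.34, 10.65, 10.06 and 10.91 in unstimulated samples, 10.19, 11.04, 9.94 and 10.98 after 18/1 for 2 hr and 9.54, 10.12, 9.2 and 10.16 after 90/5 for 5 hr. The groups overlap, and the differences were 0.3 ± 0.17 and -0.48 ± 0.17 (adjusted p = 0.67 and 0.145). Its activator Mmp14 differed by -0.14 ± 0.15 and -0.19 ± 0.15, with intervals of -0.46 to 0.18 and -0.51 to 0.13. Timp3, the inhibitor that binds to the matrix itself, read 10.49, 11.73, 11.22 and 12.35 in unstimulated samples, 11.3, 12.33, 11.3 and 12.51 after 18/1 for 2 hr and 10.9, 12.1, 10.39 and 11.99 after 90/5 for 5 hr. It overlapped in all 3 conditions, with differences of 0.42 ± 0.19 and -0.1 ± 0.19. Within the 4 same-numbered pairs of unstimulated and 18/1 2 hr samples, Timp3 was higher after stimulation in all 4. Lama3 and Lamc3 were lower in all 4 pairs. As above, the share of all genes is not given, and no paired response is read from these genes. Lama4, a laminin chain of vessels and nerve, gave 0.34 ± 0.18 and -0.12 ± 0.18, and Mmp17 gave -0.28 ± 0.21 and -0.03 ± 0.21.

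**Figure D4:**
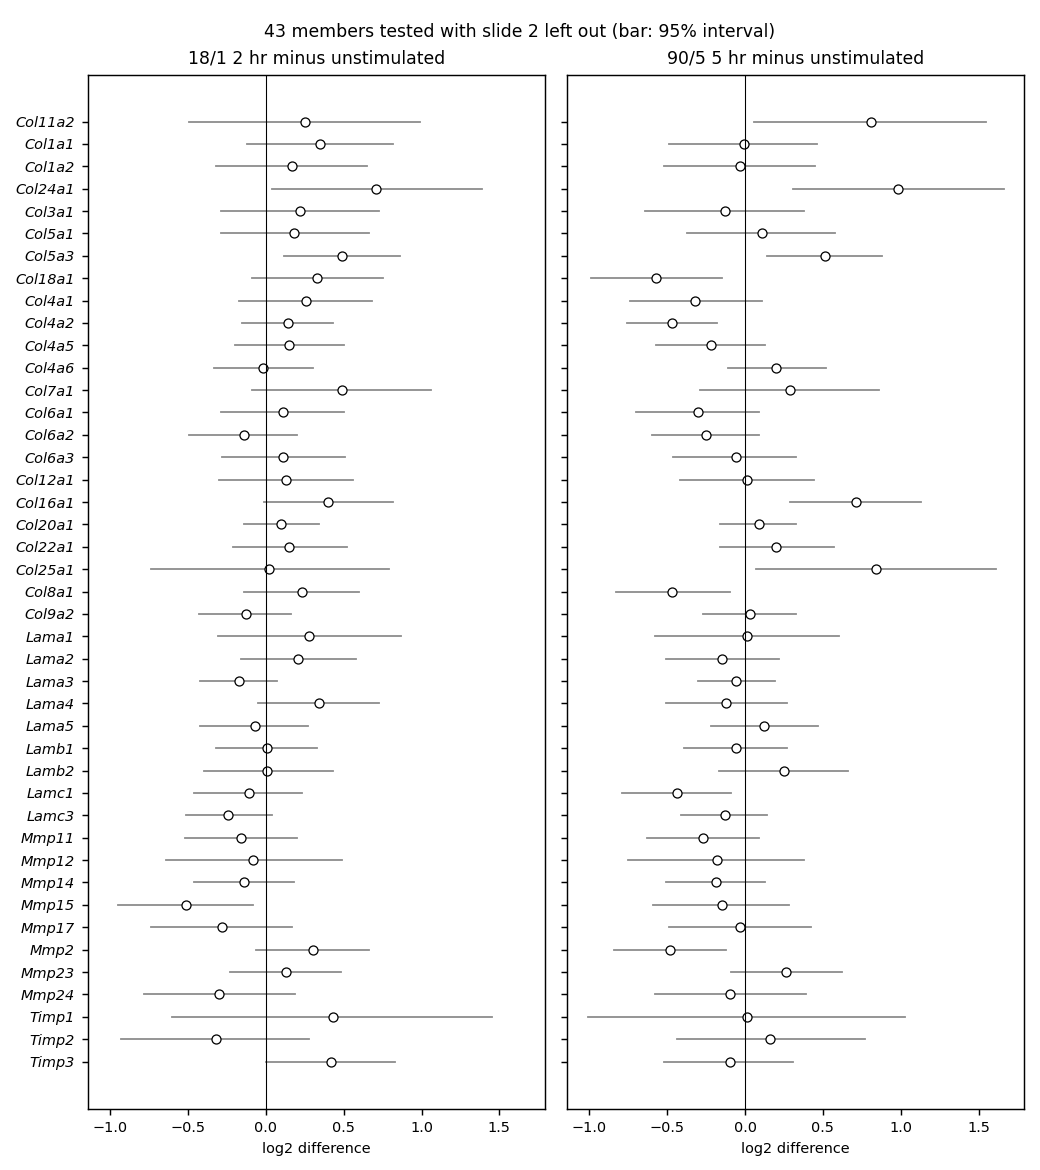
Difference in log2 intensity of the 43 members that could be tested with slide 2 left out, for 18/1 2 hr and 90/5 5 hr minus unstimulated, with 95% intervals. All points are open because none was called, and most intervals at 18/1 2 hr cross 0.

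The 2 patterns were compared at matched times. At 2 hr no member was called between 90/5 and 18/1, against 4.96% of all genes, and at an unadjusted p under 0.05 the counts were 0 of 30 and 2034 of all genes. Without array 7, 6 members and 24.6% of all genes were called. With all arrays, Col18a1 stood at 0.9 (interval -0.06 to 1.85) and Col1a1 at 0.44 (-0.63 to 1.51). At 5 hr, 9 of the 30 members were called between 90/5 and 18/1, against 45.4% of all genes. Of the members 6 were higher with 90/5 and 3 lower, against 29.6% and 15.8% of all genes. Higher with 90/5 were Col11a2 (1.9), Col6a2 (1.47), Mmp23 (1.23), Mmp15 (1.16), Lamb2 (1.06) and Col5a3 (0.79). Lower were Col1a1 (-1.81), Col18a1 (-1.59) and Col3a1 (-1.22). The 18/1 5 hr side of these values has the limits given above. Col1a1 was saturated in 3 of 4 samples and Col3a1 in 1 of 4, and Col11a2 and Mmp23 were well above background in 1 and 2 of 4. The arrays of 90/5 5 hr disagree on Col11a2, with 7.87 and 7.93 on array 9 and 9.38 and 9.25 on array 10, and the difference was 1.2 without array 10 and 2.61 without array 9. These 2 groups were on slides 3 and 2, so slide and pattern cannot be told apart. With the probe G and C trend removed, 2 of 8 called members were higher, and 4 of the 8 were among the 9. Lost with that trend removed were Col6a2 (0.41), Mmp15 (0.61), Col5a3 (0.24), Mmp23 (0.17) and Lamb2 (0.08), and kept were Col11a2 (1.54), Col1a1 (-1.4), Col18a1 (-1.18) and Col3a1 (-1.21). With median centring only, 15 of 17 were higher, and 92.6% of all genes called, in place of 65.2%. Without array 6 the count was 14, with Col18a1 and Col3a1 lost, against 5708 of all 10355 genes. Without array 5 the count was 10, against 4109 of all 10355 genes, and Col3a1, Col5a3 and Lamb2 lost the call. The count was 5 without array 9, which is not read as a loss among the members alone. Col5a3 (adjusted p = 0.0481) was not called under 28 of 42 alternatives.

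The pattern difference at 5 hr was set against that at 2 hr in the same model, and this difference of differences was called for 6 members and for 44.8% of all genes. It was 2.38 ± 0.49 for Col11a2, 1.88 ± 0.36 for Col6a2, 1.56 ± 0.38 for Mmp23 and 1.35 ± 0.47 for Lamb2, and -2.48 ± 0.65 for Col18a1 and -2.25 ± 0.73 for Col1a1. The 18/1 5 hr samples with saturated Col1a1 and dim Col11a2 and Mmp23 enter these values too, 2 of the 4 Col1a1 spots of 90/5 2 hr were saturated, and the arrays of 90/5 5 hr disagree on Col11a2. For each of the 6 the 5 hr term was the larger, and 4 conditions on 3 slides enter it. The count was 13 without array 6 or array 7 and 11 without the Cy5 sample of array 7, against 55.8%, 54.6% and 47.2% of all genes.

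Within 18/1, 7 members were called between 5 and 2 hr, against 44% of all genes: Col1a1 (1.4) and Col18a1 (1.49) higher, and Col11a2 (-1.39), Col4a2 (-1.2), Col6a2 (-1.58), Lamb2 (-0.84) and Mmp23 (-1.11) lower. With the probe G and C trend removed, Col1a1 (1.07, adjusted p = 0.0871), Mmp23 (-0.2) and Lamb2 (0.02) were not called and the other 4 were. Lamb2 (adjusted p = 0.0478) kept its call and direction under 20 of 42 alternatives and Col1a1 (adjusted p = 0.0325) under 28 of 41. The count was 4 without array 3 or array 4, 12 without array 7 or array 8 and 14 without array 6, and of all genes 25.3%, 24.8%, 50.6%, 50.7% and 54.8% were then called. The 18/1 5 hr samples, with the same saturated and dim spots, are shared by this comparison, the comparison with unstimulated neurons and the one between patterns. Within 90/5, 3 of 30 members had an unadjusted p under 0.05 between 5 and 2 hr, as did at least the 928 genes called (8.96% of all genes). None of the members was called. The count rose to 10 when array 7 was left out, and to 2 when array 6 or the Cy5 sample of array 7 was, while 27.4%, 17.4% and 11.4% of all genes were called. The conditions 90/5 2 hr and 18/1 5 hr lay on the same slide. Between them 3 members were called against 12.9% of all genes, all higher with 90/5 2 hr: Col6a2 at 1.16 ± 0.25 (adjusted p = 0.0085), Col4a2 at 1.08 ± 0.24 (adjusted p = 0.00932) and Col5a3 at 0.97 ± 0.32 (adjusted p = 0.0476). Col5a3 was not called here under 34 of 43 alternatives. With the probe G and C trend removed, 1 member and 7.95% of all genes were called. Fitted on the samples of these 2 conditions alone, no member and no gene of any kind was called. Leaving out array 6 gave 12, array 8 gave 11, its Cy5 sample alone gave 5 and array 7 gave 0, while 34.4%, 33.5%, 17.2% and 0.55% of all genes were called.

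Members that failed the filter on slide 2 could be set against unstimulated neurons only under the looser rule, brightness in all 4 samples of 1 condition. Under it 19 of 64 members were called at 18/1 5 hr, against 36.6% of all 22843 genes tested, and 2 of 64 at 90/5 2 hr, against 3.22%. A member that passed only where it was bright had to differ, so these counts show nothing about the members as a group. The 2 called at 90/5 2 hr were Col4a6, a collagen IV chain, and Lama3, a laminin alpha chain of epithelia. Col4a6 read 8.4, 8.43, 8.16 and 8.41 in unstimulated samples, 14.2, 14.21, 13.51 and 14.19 after 18/1 for 5 hr, and 9.64, 9.49, 13.72 and 14.6 after 90/5 for 2 hr. Of these 8 stimulated spots 4 carried the mark for uneven spots and 3 were saturated, and on slide 3 the level was between 8.4 and 8.67. Lama3 read 8.34, 8.46, 8.25 and 8.39 in unstimulated samples and 6.74, 6.45, 6.84 and 6.76 after 18/1 for 5 hr, where only 1 of 4 samples was well above background. After 90/5 for 2 hr it read 7.84, 7.78, 7 and 7.04, below all unstimulated samples, with 2 of 4 well above background and array 8 lower than array 7. The difference was -0.94 ± 0.24 (adjusted p = 0.0364). Mmp9, gelatinase B, a protease linked to synaptic plasticity, was well above background in 4 of 4 unstimulated samples, 2 of 4 after 18/1 for 2 hr, none after 18/1 for 5 hr or 90/5 for 2 hr and 3 of 4 after 90/5 for 5 hr. Mmp16 was well above background in 2 samples of 18/1 5 hr and in no other sample, and Timp4 in 2 samples each of 18/1 2 hr and 90/5 5 hr. No fold is given for these 3.

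Within conditions some classes of matrix genes varied together from sample to sample and others did not. The means of each condition and of each colour were removed first. The mean Pearson correlation between 2 of the 30 tested members over the 20 samples was then 0.215, against 0.0388 between 2 of all genes tested. It was 0.606 among the 4 basement membrane collagens, 0.314 among the 7 fibrillar collagens and 0.287 among the 6 laminin chains, and -0.0416 among the collagen VI chains, -0.00075 among the other collagens, 0.00233 among the MMPs and -0.205 between the 2 TIMPs. The tested neuron markers (0.346) and fibroblast markers (0.459) had higher means than the 30 members, and those of glia (-0.0267), vessels (-0.0698) and macrophages (-0.234) lower ones. Genes most like Col1a1 among the members were Col3a1 (r = 0.96), Col6a1 and Lamc1 (both 0.95) and Col18a1 (0.85). The mean of the tested fibroblast markers followed Mmp11 (0.88), Timp1 and Col5a1 (both 0.87) and Col4a1 and Col7a1 (both 0.84), and ran against Mmp15 (-0.66). The samples of an array share its hybridization, and Col1a1 was saturated in 5 and Timp2 in 6 of the 20 samples. Col3a1 was saturated in 1 sample of 18/1 5 hr and 1 of 90/5 2 hr, and Col1a2 in 1 of 18/1 5 hr. These correlations are descriptions.

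Before any colour mean was removed, the 2 samples of an array also differed. On arrays 1 to 4 the Cy5 sample was above the Cy3 sample for 29, 24, 25 and 24 of the 30 members, and on array 9 for all 30. On array 10 it was 18 of 30, and on the arrays of slide 2 it was 11, 10, 10 and 15. Over all genes tested the share was between 46.1% and 53.1% on slides 1 and 3, and it was 28.2%, 39%, 50.1% and 37.6% on arrays 5 to 8. The collagen IV chain Col4a1, for example, read 10.85 in Cy3 and 12.01 in Cy5 on array 1 and 11.07 and 11.96 on array 9. No sample was read in both colours, so colour and sample cannot be told apart, and the model carried a term for colour.

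**Figure D5:**
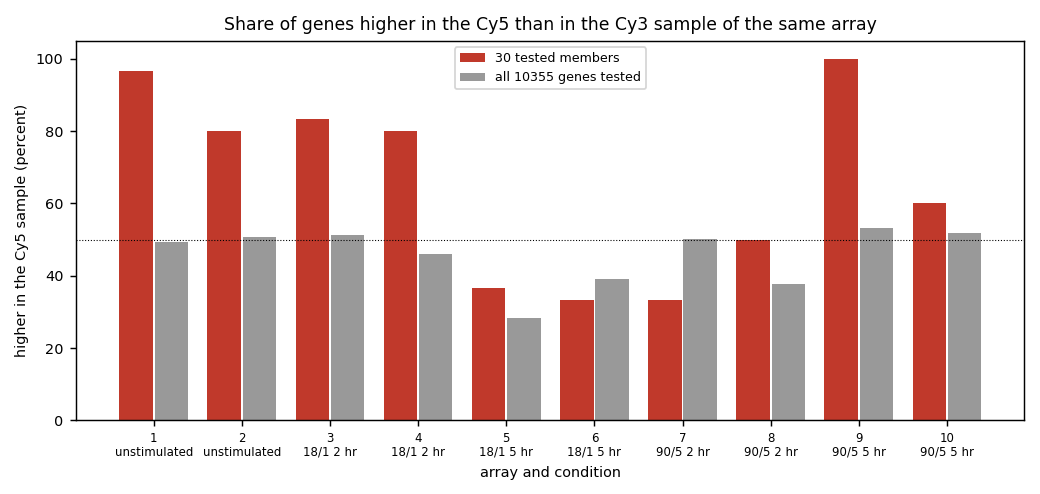
Percent of the 30 tested members (red) and of all 10355 genes tested (grey) that were higher in the Cy5 than in the Cy3 sample of the same array, for the 10 arrays. Members lie between 60% and 100% on the 6 arrays of slides 1 and 3, and at or below 50% on arrays 5 to 8.

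The enzymes that make and cross-link collagen were counted beside the chains themselves. Of 22 such genes tested, none was called at 18/1 2 hr or 90/5 5 hr. At 18/1 5 hr 13 of the 22 were called, 3 higher and 10 lower, with a median difference of -0.77, where 44.4% of all genes were called, 15% higher and 29.5% lower, with a median of -0.23. With the probe G and C trend removed 7 of the 22 were called, 3 higher and 4 lower, against 35.9% of all genes. Bmp1, the proteinase that trims the ends of fibrillar procollagens, read 3.38 ± 0.4 (adjusted p = 4.45e-06). Plod1, a lysyl hydroxylase, read -1.84 ± 0.36 (adjusted p = 0.000423), and P4ha1, a prolyl hydroxylase subunit, read -1.1 ± 0.25 (adjusted p = 0.00163). Bmp1 was the only one of the 22 called at 90/5 2 hr, at 2.76 ± 0.4 (adjusted p = 0.000193), where 6.97% of all genes were called. Both of these conditions lay on slide 2 and the unstimulated samples on slide 1, so slide and condition cannot be told apart. With slide 2 left out, Bmp1 differed by -0.31 ± 0.16 at 18/1 2 hr and by 0.01 ± 0.16 at 90/5 5 hr.

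Of 14 tested partners of laminin and collagen IV in the basement membrane, 6 were called at 18/1 5 hr, 3 in each direction, a share near the 44.4% of all genes. Agrn, a heparan sulfate proteoglycan that organizes synapses, read 1.75 ± 0.3 (adjusted p = 0.000154). Pxdn, which cross-links collagen IV, read 1.78 ± 0.41 (adjusted p = 0.00176) and Sparc, a collagen-binding protein, 1.17 ± 0.42 (adjusted p = 0.0274). Itgb1, the integrin beta 1 receptor chain, read -1.79 ± 0.37 (adjusted p = 0.00068). Of 9 other secreted matrix proteins 3 were called, all lower (Bgn, Ecm1 and Fmod), and of 15 other proteases and their regulators 4 were, all lower (Adam15, Bsg, Ctsl and Lcn2), shares below that of all genes. At 90/5 2 hr, 2 of the 14 partners were called, where 6.97% of all genes were. They were Agrn at 1.23 ± 0.3 (adjusted p = 0.0177) and Frem2 at -0.9 ± 0.24 (adjusted p = 0.0258). No gene of the other 2 lists was called there. None of these lists had a called gene at 18/1 2 hr or 90/5 5 hr. The 18/1 5 hr and 90/5 2 hr samples were all on slide 2, so here too slide and condition cannot be told apart. With slide 2 left out, Agrn differed by 0.32 ± 0.21 at 18/1 2 hr and by 0.68 ± 0.21 at 90/5 5 hr, neither called.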

How the data were processed

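The authors deposited, for each of 10 two-colour arrays, the mean intensity of each spot in both colours and the median background intensity around it, on a linear scale and not normalized, with the scanner software's marks for saturated, uneven and well-above-background spots. The headers name Feature Extraction 10.7.1.1 for slide 1 and 10.7.3.1 for slides 2 and 3, and build mm9 for probe positions. A further 72 columns of colour values per array were not used. Scans had different levels of signal: the median spot was 2.27 to 2.94 times its background on slide 1, 3.64 to 10.4 times on slide 2 and 2.66 to 4.91 times on slide 3, and the number of samples limits the precision. Slide 1 held the unstimulated and 18/1 2 hr samples, slide 2 the 18/1 5 hr and 90/5 2 hr samples and slide 3 the 90/5 5 hr samples.

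In limma 3.58.1 (R 4.3.3), background was corrected with normexp (offset 50), colours were normalized by loess within arrays, control spots at weight 0, and arrays were scaled with Aquantile. Spots had to be 2 times their background and not marked as uneven in all 20 samples. Spots of a probe were averaged, and each of 10355 genes was read by its brightest probe. The two-sided moderated test was fitted to all samples with a mean per condition, a colour term and the array as a random block (correlation 0.529). Benjamini-Hochberg adjustment ran over all genes within each of 9 comparisons, and a gene was called at an adjusted p under 0.05. The fit was tested on simulated data.

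The members and the gene lists were chosen with earlier results of these data known. Members in a list of 26 matrix genes are described whatever their values, and beyond them up to 6 called members in each direction per comparison with unstimulated neurons, if all 4 samples lay on 1 side of the unstimulated ones, and every member where 5 or fewer were called. Members named as examples of a range, of the 2 arrays or of other comparisons were chosen after their values were seen. The other lists are those of collagen making, basement membrane partners, other secreted matrix, other proteases and cell type markers. Gene names are those of the later annotation deposited with the arrays, which differs from the earlier in 8333 of 44397 spots.

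Same-numbered samples of unstimulated neurons and 18/1 2 hr deviated together (correlations of 0.134 to 0.555 over genes), so these are taken as paired. Against 90/5 5 hr the correlations ran from -0.34 to 0.545, and no pairing is taken there. Labels give contradictory dyes for slide 2, so its samples have no replicate number. The alternatives were other background and normalization methods, removal of each sample's trend on probe G and C content (loess, span 0.5), looser filters, saturated probes left out, every probe, no array block, fits on parts of the samples, a replicate block, the methods' t-test (fold over 1.4 and p under 0.05) and leaving out each sample and array. Leaving out slide 2 from every step and array quality weights were added after seeing the data.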

Additional observations from a re-analysis of the deposited data

Results flagged for a closer look

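In 4 of 115 groups of 4 samples, over 23 members, 1 sample stood far from the other 3, where chance alone sets apart about 1 in 20 groups. The gap to the nearest sample, as a share of the group's range, was 0.881 for Col16a1 after 18/1 for 2 hr (11.84 in the Cy3 sample of array 4, 11.47 next) and 0.836 for Col1a1 in unstimulated neurons (12.35 in the Cy3 sample of array 1, 13.29 next). It was 0.885 for Col6a2 after 18/1 for 2 hr (9.3 in the Cy3 sample of array 3, 9.5 next) and 0.889 for Timp2 in unstimulated neurons (15.89 in the Cy5 sample of array 1, 15.6 next).

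The difference between the patterns was not equal at 5 and 2 hr for 6 members by the test of that difference itself in limma, against 44.8% of all genes, a larger share than among the 30 members. Col11a2 gave 2.38 (adjusted p = 6e-04), Col6a2 1.88 (adjusted p = 0.000285), Mmp23 1.56 (adjusted p = 0.00234), Lamb2 1.35 (adjusted p = 0.025), Col18a1 -2.48 (adjusted p = 0.00413) and Col1a1 -2.25 (adjusted p = 0.016). With the trend on probe G and C content removed, 3 members and 35.2% of all genes were called. The slide differs between these conditions, and its part was not tested.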

How the results depend on the processing

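No member was called after 18/1 for 2 hr under any setting except the methods' t-test without adjustment (1) and array quality weights (3), and after 90/5 for 5 hr under any except the replicate block (1, Col16a1) and those weights (6). Over all 10355 genes the weights called 1600 and 2583 in these comparisons, larger shares than among the 30 members. The weights were added after seeing the data and their estimation stopped before it converged. When an array was left out, the counts that moved were those of comparisons that held slide 2 samples. Arrays of the other slides moved them too. The count for 18/1 5 hr minus unstimulated went from 8 to 4 without array 1, on slide 1. That between patterns at 5 hr went from 9 to 5 without array 9, on slide 3. For most comparisons slide and condition cannot be told apart. Of the 23 MMPs, 13 were well above background in all 4 unstimulated samples, 4 were tested, and 4 more failed only through uneven spots on slide 2.

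The following counts of called members moved by more than 1.5 times. For 18/1 5 hr minus unstimulated (8), median centring gave 15, brightness in 1 condition 19, no spot filter 18 and no array block 13. For 90/5 2 hr minus unstimulated (0), these gave 1, 2, 2 and 4, and the methods' t-test without adjustment 2. For 90/5 5 hr minus 18/1 5 hr (9), the same 4 settings gave 17, 18, 17 and 15, and quality weights 16. For 18/1 5 hr minus 18/1 2 hr (7), they gave 16, 19, 17 and 12, quality weights 14, and the methods' t-test after Benjamini-Hochberg adjustment 4. For 90/5 2 hr minus 18/1 5 hr (3), median centring gave 10, brightness in 1 condition 6, no array block 7, removal of the G and C trend 1, quality weights 1, and 0 came from the fit on the 2 conditions, from the fit within the slide and from the adjusted t-test. For 90/5 2 hr minus 18/1 2 hr (0), brightness in 1 condition gave 1. For 90/5 5 hr minus 90/5 2 hr (0), it gave 3, no spot filter 2, no array block 2, and removal of the G and C trend, every probe, the unadjusted t-test and quality weights 1 each. For the difference between the pattern differences at 5 and 2 hr (6), median centring, brightness in 1 condition and no spot filter gave 16 each, no array block 13, quality weights 11 and removal of the G and C trend 3. Over all 10355 genes, median centring called 5443, 515 and 5958 in the first 3 of these comparisons, and quality weights 5810 in the third. Brightness in 1 condition called 36.6% and 3.22% of 22843 genes in the first 2. Removal of the G and C trend called 7.95% of all genes between 90/5 2 hr and 18/1 5 hr. It called 5.59% between 5 and 2 hr of 90/5, and 35.2% for the difference of pattern differences. These counts are thus not read as moves of the members alone. Looser filters tested more members, and the cause of the other moves was not tested.

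Leaving out each sample or array in turn gave 0 to 0 members after 18/1 for 2 hr, 4 to 15 after 18/1 for 5 hr, 0 to 9 after 90/5 for 2 hr and 0 to 0 after 90/5 for 5 hr. Between patterns the counts ran from 0 to 6 at 2 hr and from 5 to 14 at 5 hr, between times from 4 to 14 for 18/1 and from 0 to 10 for 90/5, between 90/5 2 hr and 18/1 5 hr from 0 to 12, and for the difference of pattern differences from 4 to 13. Between patterns at 2 hr the 6 came from leaving out array 7. Calls over all genes moved too. After 18/1 for 5 hr, 2572 genes were called without array 1 and 5662 without array 6. After 90/5 for 2 hr, 2792 were called without array 7, against 722 with all arrays. Between patterns at 5 hr, 5708 were called without array 6, against 4701 with all arrays. These ranges are thus not read as moves of the members alone. Timp2 at 18/1 5 hr turned to -1.18 with median centring and to -2.49 with saturated probes left out, where its other probe was read. With the G and C trend removed, Lamb2 turned to 0.07 at 18/1 5 hr against unstimulated neurons and to 0.02 against 18/1 2 hr.

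In the paired analysis on the 12 samples of slides 1 and 3, the replicate block changed no call of a member after 18/1 for 2 hr (0) and gave 1 after 90/5 for 5 hr, where the numbers do not pair the samples. Over all genes it moved the calls from 6 to 7 and from 257 to 359.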
